A study of Mus musculus with 6 samples.

Results

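The genes described here are the nuclear receptors that read retinoic acid, with their corepressor and coactivator genes, in mouse embryonic spleens at stage E13.5. Of the 9 genes chosen (the retinoic acid receptor genes Rara, Rarb and Rarg, the retinoid X receptor genes Rxra, Rxrb and Rxrg, and the cofactor genes Ncor1, Ncoa1 and Nrip1), 8 had a probe set whose only gene symbol was theirs, out of 19938 genes so named on the array. Each of the 8 had 1 such probe set and passed the filter on low values. No probe set was annotated to Ncor1 alone, so that gene was not analysed here.

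Total RNA of 3 Tlx1 heterozygous and 3 Tlx1 homozygous spleens was hybridised to 6 Affymetrix mouse whole-transcript arrays. The product of Tlx1, a homeobox protein, is needed for the early spleen primordium to be kept and grow, and the series title asks how it bears on retinoic acid signalling. The labels state the zygosity of Tlx1 and leave the allele unnamed; homozygous spleens are taken to carry 2 altered copies. Heterozygous spleens, which carry the altered allele too, were the reference, and no wild-type group was used here. The labels do not state whether a replicate is 1 embryo or a pool, or whether embryos came from separate litters, so the p-values rest on sample-to-sample spread that could be technical in part or in full. Values are GCRMA intensities on a linear scale. Means are given with SD over 3 arrays, and log2 fold changes are homozygous minus heterozygous on log2(intensity + 1), with the standard error (SE) of limma. A gene was called at a Benjamini-Hochberg adjusted p below 0.05 over 18710 genes.

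Retinoic acid is a small lipid hormone made from vitamin A that diffuses between cells and enters the nucleus. There a retinoic acid receptor (RAR) sits on DNA as a heterodimer with a retinoid X receptor (RXR). Without ligand the pair holds corepressor complexes built on NCOR proteins and histone deacetylases; with ligand it exchanges them for coactivators of the NCOA family, which bring histone acetyltransferases. The pair binds direct repeats of a short hexamer, spaced by 1, 2 or 5 bases, and the repeat with spacing 5 (DR5) is the textbook element of the Rarb gene, which is therefore both a receptor and a target. Retinoic acid acts in the patterning of mesenchyme in the gut region in which the spleen arises.

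Because that element lies beside the transcript start, the bases in front of the Rarb start are shown here, from RefSeq's GRCm38.p6 promoter table. The stretch is chr14:16575477-16575726 on the minus strand, 250 bases printed 5′ to 3′ and ending just before the annotated start, with every match to the consensus hexamer AGGTCA, to its close variant AGTTCA, to the form GGGTCA or to the form GGTTCA set in capitals.
Rarb: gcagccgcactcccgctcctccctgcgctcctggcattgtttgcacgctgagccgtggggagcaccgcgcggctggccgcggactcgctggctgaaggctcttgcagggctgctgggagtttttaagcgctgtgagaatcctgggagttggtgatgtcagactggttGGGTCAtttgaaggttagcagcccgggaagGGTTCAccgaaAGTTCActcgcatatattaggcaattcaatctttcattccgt

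The last 2 capital stretches form the DR5, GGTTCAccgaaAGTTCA, at positions -53 to -37 from the start (chr14:16575513-16575529). All 9 genes had at least 1 window in that table, 18 windows in all, each from 250 bases before to 50 after a start. The search used those 4 hexamers on both strands, and a DR1, DR2 or DR5 is a pair of them in the same orientation at that spacing, so that each pair also counts as hexamers. Hexamers occurred in 9 of the 18 windows and in 43.7% of all 32851 windows of the table. A DR5 occurred in 1 of the 18, that of Rarb, and in 0.0974% of all windows. The Rarb element was known beforehand and both of its hexamers are among the 4 searched, so finding it was fixed in advance. No DR1 or DR2 lay in a window of these genes, against 0.222% and 0.268% of all windows. A match is a description of letters and not evidence of binding. A window without one says nothing about elements elsewhere or about elements built of other hexamers.

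**Figure D1:**
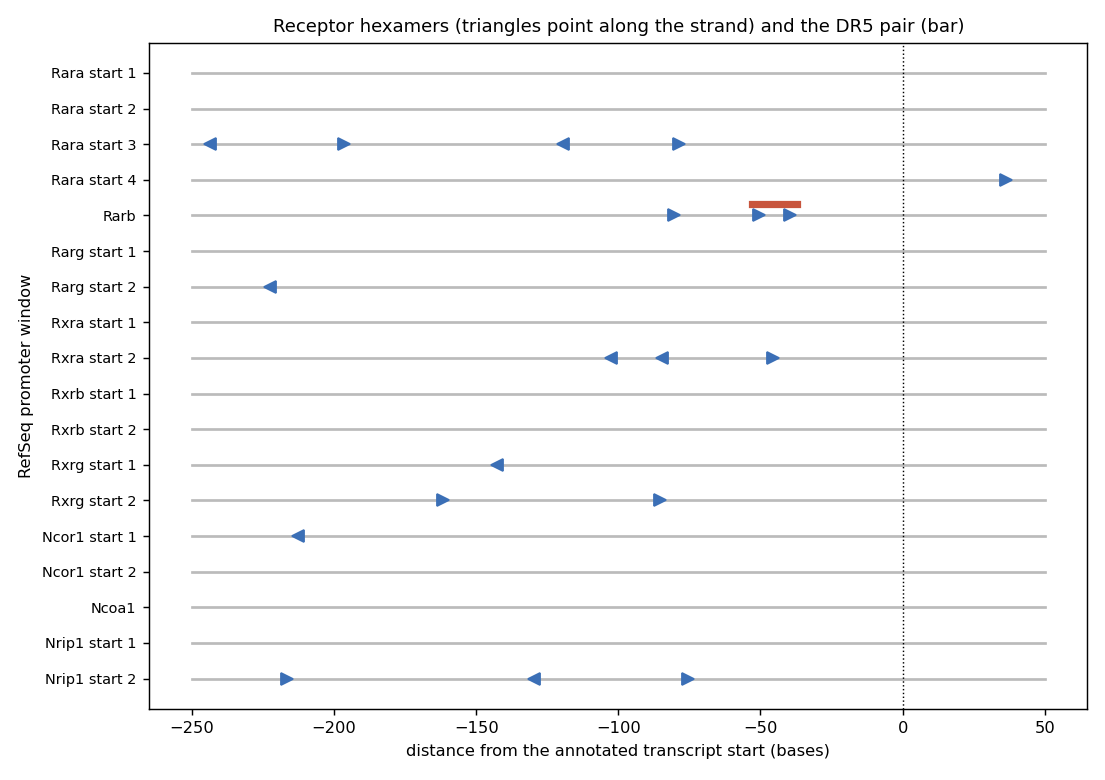
Positions of the receptor hexamers in the 18 RefSeq promoter windows of the 9 genes, in bases from each annotated start; triangles point along the strand of the match and the bar marks a DR5. Rarb has 3 hexamers in 1 orientation, of which 2 form the DR5 at -53 to -37, while the single Ncoa1 window has none.

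The altered gene checks the labels. Tlx1 averaged 750 ± 65.3 in the heterozygous and 193 ± 19.9 in the homozygous group (SD, n = 3 each), and whether its probe set lies in the altered part is not known here. Array medians lay between 106 and 110, and Pearson's r over the log2 values of all genes was 0.995 to 0.997 for arrays of 1 group and 0.989 to 0.993 for arrays of different groups. The 5 genes measured as spleen mesenchyme markers were all called lower, the altered gene Tlx1 among them, beside 6.56% lower over all genes. The list's lowest intensity was 171, so its measured members gave signal in both groups.

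Among the 8 measured receptor and cofactor genes, Rarb rose, Ncoa1 fell slightly, and 6 did not pass. The call of Rarb held under all 20 alternative settings and that of Ncoa1 under 8 of them. Across all genes tested 17% were called, 10.4% higher and 6.56% lower, so 2 calls among 8 genes are a share near the background. The median log2 fold change was 0.05 over the 8 genes and 0.02 over all genes. Groups did not overlap for 4 of the 8, as for 38.3% of all genes.

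**Figure D2:**
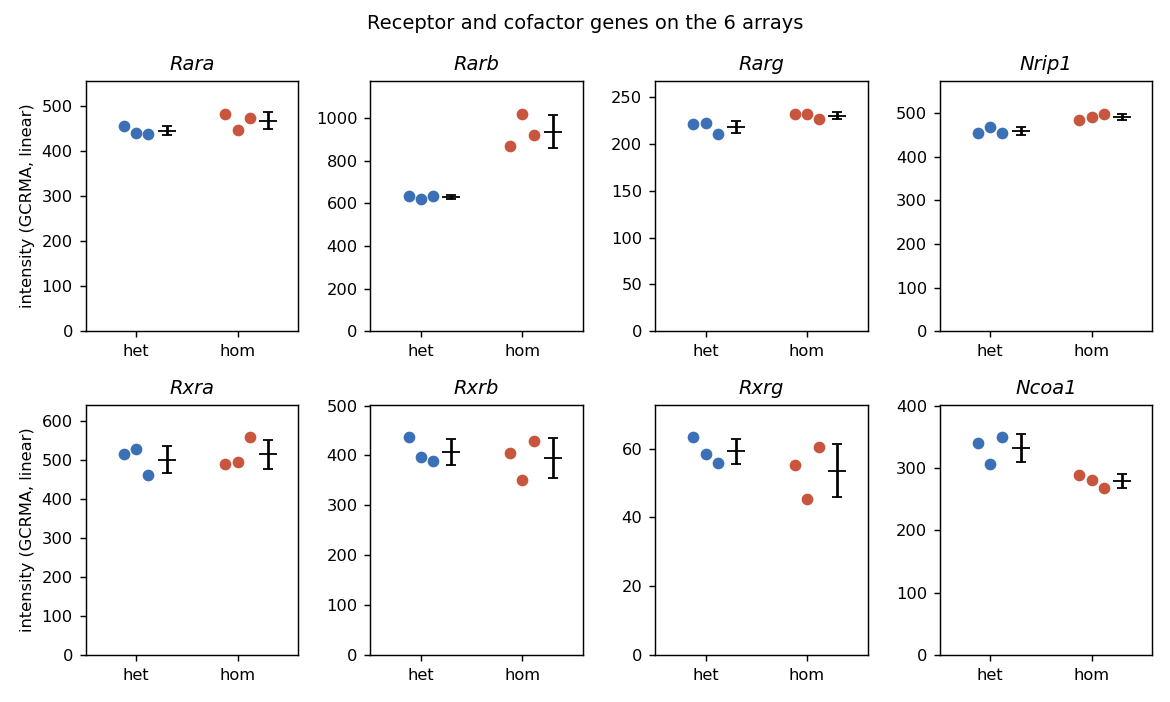
Intensity (GCRMA, linear axis from 0) of the 8 measured genes on each array; blue points are heterozygous and red points homozygous spleens, and black bars give mean ± SD over 3 arrays. Rarb shows a clear gap between the groups, the smaller gap of Ncoa1 leaves its groups apart, and the points of the RXR genes intermingle.

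Rarb encodes RAR beta, a receptor whose own transcription responds to the hormone. Its intensity was 635, 620 and 637 on heterozygous arrays 1 to 3 and 867, 1021 and 922 on homozygous arrays 1 to 3. The heterozygous arrays lay within 18 units of each other, every homozygous array lay above all of them, and the homozygous arrays were more spread. The means were 630 ± 9.52 and 937 ± 78.0 (SD, n = 3). Rarb was thus 1.48-fold higher in homozygous spleens (95% confidence interval 1.32 to 1.66), a log2 fold change of 0.57 ± 0.07 (SE; limma adjusted p = 0.00251), higher in 3 of 3 arrays. Of all genes tested, 2.11% had a larger change in either direction. The estimate was 0.50 without homozygous replicate 2, its brightest array, and 0.62 without homozygous replicate 1, its dimmest homozygous array.

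Rara and Rarg encode the other retinoic acid receptors, RAR alpha and RAR gamma. Rara measured 457, 440 and 439 on the heterozygous arrays and 483, 446 and 473 on the homozygous arrays. The groups overlapped, since homozygous array 2 lay below heterozygous array 1. Its log2 fold change was 0.07 ± 0.06 (SE; limma adjusted p = 0.458), with a 95% interval of 0.953-fold to 1.16-fold. Rarg measured 221, 223 and 211 on the heterozygous arrays and 232, 232 and 226 on the homozygous arrays. Its groups did not overlap, but the gap was small, with a log2 fold change of 0.08 ± 0.06 (SE; limma adjusted p = 0.39) and an interval of 0.962-fold to 1.16-fold. Both intervals leave out changes as large as the lower bound for Rarb, 1.32-fold, and neither shows that the level was the same in both groups.

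Rarb therefore shifted against the other receptor genes on the same arrays. Taken relative to the heterozygous mean, the log2 difference Rarb minus Rara was 0.34, 0.69 and 0.46 on homozygous arrays 1 to 3, while the heterozygous arrays ranged from -0.03 to 0.04. For Rarb minus Rarg the homozygous arrays were at 0.37, 0.60 and 0.50, and the heterozygous arrays ranged from -0.06 to 0.06. Neither range overlapped between groups. Rara minus Rarg moved by -0.01 on average, with homozygous arrays from -0.09 to 0.04 and heterozygous arrays from -0.05 to 0.03. These differences are descriptions with no test, and they show unequal change rather than absence of change in any 1 gene.

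**Figure D3:**
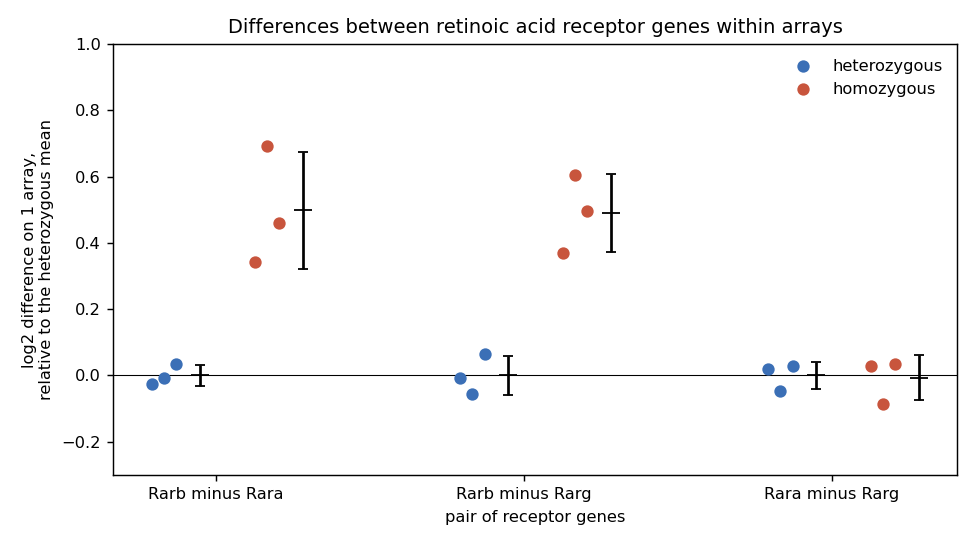
Within-array log2 differences between the 3 retinoic acid receptor genes, each relative to its heterozygous mean, with 3 arrays per group (blue heterozygous, red homozygous) and black bars for mean ± SD. Both differences that involve Rarb lie higher on all homozygous arrays, by 0.50 and 0.49 on average, and Rara minus Rarg overlaps between groups.

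The RXR genes encode the obligate partners of the RARs. Rxra measured 514, 527 and 461 on the heterozygous arrays and 490, 496 and 558 on the homozygous arrays. Rxrb measured 436, 397 and 388 on the heterozygous arrays and 405, 350 and 429 on the homozygous arrays. The groups of both genes overlapped widely. Rxra was at 0.04 ± 0.08 (SE; limma adjusted p = 0.765), with an interval of 0.906-fold to 1.16-fold. Rxrb was at -0.05 ± 0.09 (SE; limma adjusted p = 0.742), with an interval of 0.842-fold to 1.11-fold. The sign of both depended on the setting: Rxrb was at 0.03 after quantile normalization and 0.01 after cyclic loess, and Rxra at -0.01 with array weights.

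Rxrg encodes RXR gamma, which in adults is best known from muscle and nervous tissue. It was dim in these spleens, at 63.3, 58.3 and 56.0 on the heterozygous arrays and 55.1, 45.3 and 60.4 on the homozygous arrays, against a filter floor of 15. The groups overlapped, and homozygous array 2 was the lowest. The log2 fold change was -0.15 ± 0.11 (SE; limma adjusted p = 0.355), with an interval of 0.764-fold to 1.06-fold, the widest of the 8 genes on the log2 scale. Without homozygous replicate 2 it was -0.03. No detection call accompanied the intensities used here, so such low values do not prove that the gene was expressed.

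**Figure D4:**
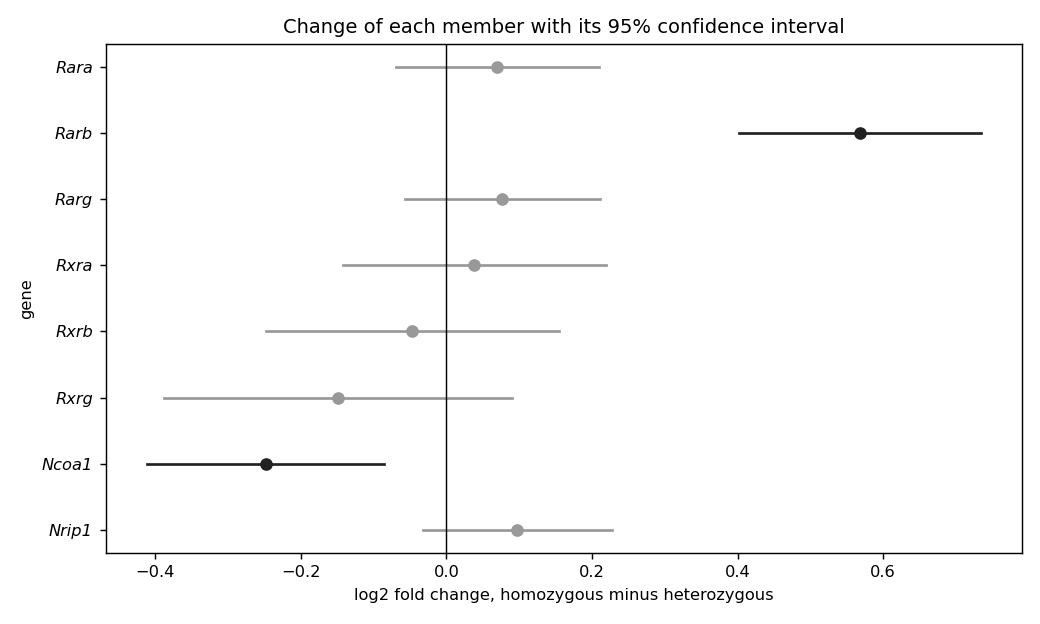
Log2 fold change (homozygous minus heterozygous) of the 8 measured genes with its 95% confidence interval from limma over 3 arrays per group; black marks the 2 called genes and grey the others. Rarb lies alone at 0.57, Ncoa1 lies at -0.25, and the other 6 intervals include 0.

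Of the cofactors, Ncoa1 (SRC-1) is a coactivator that ligand-bound receptors recruit. It measured 341, 306 and 349 on the heterozygous arrays and 288, 281 and 268 on the homozygous arrays. The groups did not overlap, and heterozygous array 2 lay nearest to the homozygous ones. The means were 332 ± 22.8 and 279 ± 10.5 (SD, n = 3), a log2 fold change of -0.25 ± 0.07 (SE; limma adjusted p = 0.0464), or 0.842-fold with an interval of 0.752-fold to 0.942-fold. Of all genes tested, 22.6% had a larger change in either direction. The call lay at the threshold and was lost under 12 of 20 alternatives, among them 5 of the 6 refits without 1 array. The adjusted p was 0.132 without heterozygous replicate 1, 0.119 without heterozygous replicate 3, 0.0933, 0.0703 and 0.114 without homozygous replicates 1, 2 and 3, and 0.0491 without heterozygous replicate 2.

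Y-linked signal varied among the heterozygous arrays. The Y-linked gene Eif2s3y was at 600, 398 and 735 on heterozygous arrays 1 to 3 and between 391 and 417 on the homozygous arrays. Among the heterozygous arrays Eif2s3y and Ncoa1 had the same order, highest on array 3 and lowest on array 2. Homozygous array 1 had Eif2s3y at 417 and Ncoa1 at 288, against 398 and 306 on heterozygous array 2. Those arrays also differ in genotype, so this pair says nothing about a link between the 2 genes. With the mean level of 3 Y-linked genes as a covariate Ncoa1 was at -0.14 ± 0.09 (SE; limma adjusted p = 0.331) and Rarb at 0.58 ± 0.10 (SE; limma adjusted p = 0.0191). Without this covariate Ncoa1 was at -0.25 ± 0.07 (SE; limma adjusted p = 0.0464) and Rarb at 0.57 ± 0.07 (SE; limma adjusted p = 0.00251). An order shared over 3 arrays is weak evidence of a link, and the part of sex in either change was not tested.

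Nrip1 (RIP140) is a corepressor that binds receptors carrying their ligand, and its gene responds to retinoic acid in several cell types. It measured 455, 469 and 454 on the heterozygous arrays and 484, 492 and 499 on the homozygous arrays. The groups did not overlap, yet the difference was small. The log2 fold change was 0.10 ± 0.06 (SE; limma adjusted p = 0.266), with an interval of 0.977-fold to 1.17-fold, and the call stayed absent under all 20 alternatives.

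**Figure D5:**
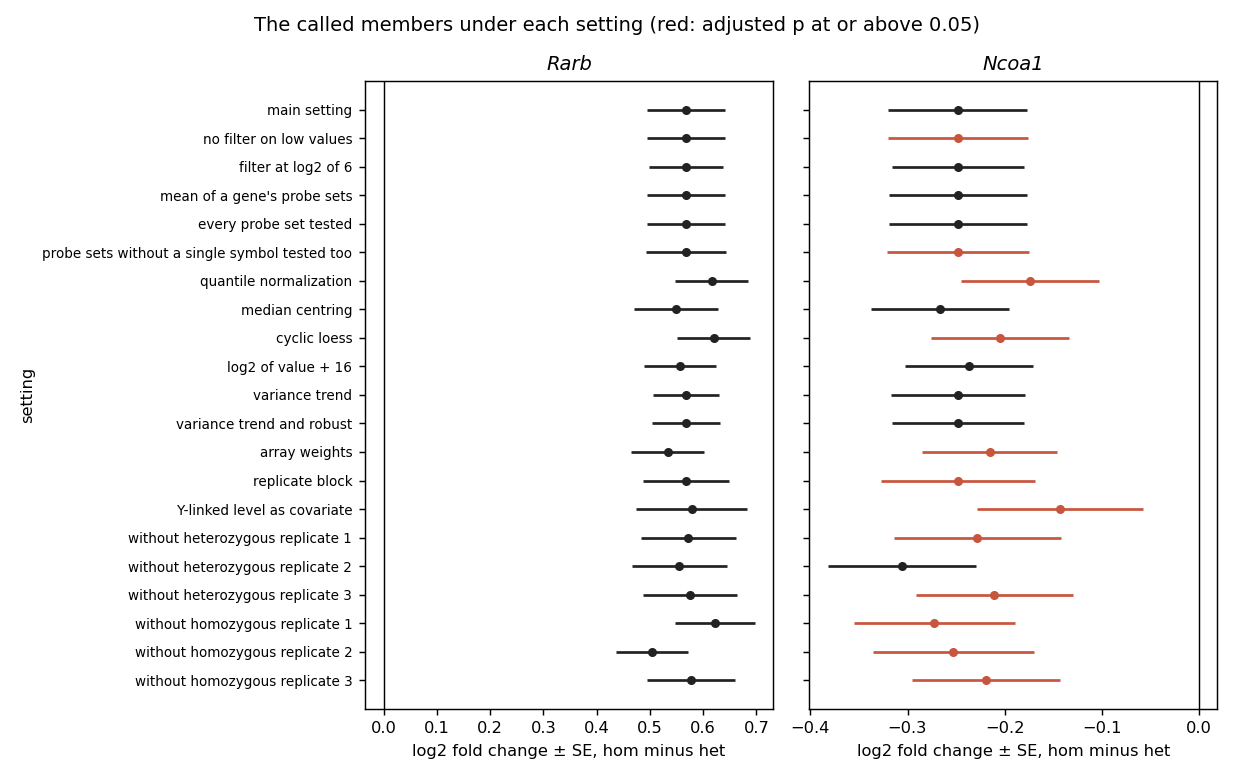
Log2 fold change ± SE of Rarb and Ncoa1 under the main setting and 20 alternatives, with red where the adjusted p was 0.05 or above. Rarb stays between 0.50 and 0.62 and is called throughout, while Ncoa1 ranges from -0.31 to -0.14 and loses its call under 12 alternatives.

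The genes whose profile over the 6 arrays lay nearest to that of Rarb were Fabp2, Smad9 and Peg3. Likeness is the Euclidean distance between log2 profiles, each centred on its own mean, so a small value means a similar size of change on every array. Fabp2, an intestinal fatty acid binding protein gene, lay at a distance of 0.0961 and was dim, at 17.0 ± 0.763 and 26.8 ± 2.25 (SD, n = 3). Smad9, a receptor-regulated SMAD of the BMP branch, lay at 0.118 with a log2 fold change of 0.52, and the imprinted zinc finger gene Peg3 lay at 0.118 with 0.63. Nearest to Ncoa1 were Nipal2 (0.0746), the syntrophin gene Sntb1 (0.0786) and the splicing helicase gene Dhx38 (0.0805), with log2 fold changes of -0.23, -0.21 and -0.21. Nipal2 lost its call in every refit without 1 array, and Sntb1 and Dhx38 were not called (limma adjusted p = 0.0519 and 0.0586).

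The other cofactor genes were measured too. Of 11 other corepressor genes measured, including the deacetylase genes Hdac1 to Hdac3, 1 rose and none fell in limma, a share near the 10.4% higher and 6.56% lower over all genes. Their median log2 fold change was -0.01, and 2 had an unadjusted p below 0.05, beside 34.1% of all genes. The rise was that of Nr0b2 (SHP), an atypical receptor that lacks a DNA-binding domain and represses its partners, at 35.8 ± 1.39 against 55.8 ± 5.89 (SD, n = 3), a log2 fold change of 0.62 ± 0.08 (SE; limma adjusted p = 0.00308). Without homozygous replicate 1 there were 2 rises. Nr0b2 is dim and was removed by a filter at a log2 value of 6. Of 12 other coactivator genes, among them the acetyltransferase genes Ep300 and Crebbp, none was called in limma and none had an unadjusted p below 0.05, with a median of -0.04. The smallest p-values were those of Ncoa3, a relative of Ncoa1, at 0.15 ± 0.07 (SE; limma adjusted p = 0.153), and the Mediator subunit gene Med1 at -0.14 ± 0.07 (SE; limma adjusted p = 0.173).

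Other receptors share the RXRs or the DNA hexamer. Of 12 other RXR partner genes measured, none was called in limma, with a median of 0.05. An unadjusted p below 0.05 was found for 4 of the 12, a share near the 34.1% over all genes. The vitamin D receptor gene Vdr was nearest to the threshold at -0.28 ± 0.08 (SE; limma adjusted p = 0.0514), passed under 8 of 20 alternatives, and was at -0.37 without heterozygous replicate 3, where its call passed. The orphan receptor gene Nr4a1, an immediate early gene, was at -0.19 ± 0.08 (SE; limma adjusted p = 0.123). Without heterozygous replicate 1 there was 1 rise among these partners. Of 6 genes of orphan receptors that bind direct repeats of the same hexamer, not always at the same spacing, 1 fell and none rose. Their median was 0.05, and the share of calls was near the 17% over all genes. The fall was that of Nr2f6, a relative of the COUP transcription factors, with means of 408 ± 23.0 and 332 ± 31.5 (SD, n = 3). Its log2 fold change was -0.30 ± 0.08 (SE; limma adjusted p = 0.044), and the call was lost in all 6 refits without 1 array (adjusted p = 0.0645 to 0.131).

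More calls lay in the supply of the ligand and among the genes that respond to it. Of 13 measured genes of synthesis, clearance and transport, 6 rose and 1 fell, with a median of 0.23, beside 10.4% higher and 6.56% lower over all genes. Since the list joins synthesis with clearance, these counts and this median give no direction for the amount of ligand. The fall was that of Cyp26b1, which degrades retinoic acid (-0.89 ± 0.12). Cyp26c1, which degrades retinoic acid too, was dim, at 58.7 ± 3.11 against 73.7 ± 8.35 (SD, n = 3). It was among the 6 rises (0.32 ± 0.09, limma adjusted p = 0.0419), and Cyp26a1 was not called (-0.10 ± 0.11). Nor were the synthesis genes Aldh1a2 (0.23 ± 0.07, limma adjusted p = 0.0537) and Rdh10 (-0.19 ± 0.07, limma adjusted p = 0.0759). The largest rises were those of the retinol dehydrogenase gene Adh1 (0.51 ± 0.06), of Dhrs3, which returns retinal to retinol (0.45 ± 0.08), and of the carrier gene Crabp2 (0.43 ± 0.09). Of 11 measured response genes, which share 3 measured members with that list, 6 rose and none fell, with a median of 0.29, led by the Hox gene Hoxb5 (0.73 ± 0.07), Dhrs3 and Crabp2, and with the transglutaminase gene Tgm2 at 0.30 ± 0.08. Of the 6 refits without 1 array, Tgm2 was called only in that without heterozygous replicate 1. Leaving out heterozygous replicate 2 left 3 rises among the response genes. With the Y-linked covariate the supply list held 2 rises and the response list 1, and Dhrs3 and Crabp2 were not called (limma adjusted p = 0.074 and 0.113). With probe sets of several or no symbols tested too, each list held 3 rises, and Crabp2 and Tgm2 were not called (limma adjusted p = 0.0527 and 0.084). No list was tested as a whole, and nothing particular to a list is read from these counts.

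The DR5 of Rarb can be set beside the other genes that have one in a promoter window. Of 14673 genes both tested and present in the promoter table, 11 held a DR5, Rarb itself among them. Of the 11, 4 were higher, Rarb included, and 2 lower (36.4% and 18.2%), beside 9.81% higher and 6.4% lower of all 14673. These shares thus count the gene that prompted the comparison. The median log2 fold change was 0.03 against 0.01 for all 14673. This group was formed after the values were seen and has no test. The pairs of its called members, and of Cyp26a1, whose element is as well known as that of Rarb, are shown 5′ to 3′ along the strand of the match in GRCm38.p6, with the hexamers in capitals and the spacer in lower case.
Rarb: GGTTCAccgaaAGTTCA
Syndig1: GGGTCAcccctAGTTCA
Prokr2: AGGTCAcaacgGGTTCA
Prss27: AGTTCAgggccGGGTCA
Hbb-y: AGGTCAtgggaGGGTCA
Ppbp: AGGTCAgacctAGGTCA
Cyp26a1: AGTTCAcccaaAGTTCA

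Syndig1, a synapse protein gene, rose by 0.58 ± 0.07, next to Rarb in size. The receptor gene Prokr2 (0.35 ± 0.09) and the protease gene Prss27 (0.23 ± 0.06) rose less, and each kept its call in only 1 of the 6 refits without 1 array, Prokr2 without heterozygous replicate 3 and Prss27 without homozygous replicate 2. The embryonic globin gene Hbb-y (-0.26 ± 0.06), which is hard to separate from its paralogs and lost its call without any 1 heterozygous array and without homozygous replicate 1, and the platelet chemokine gene Ppbp (-1.73 ± 0.27) fell. Cyp26a1, which degrades retinoic acid, holds its pair on the opposite strand at chr19:37697776-37697792, at positions -32 to -16, and was at 67.8 ± 10.8 against 62.8 ± 5.15 (SD, n = 3), a log2 fold change of -0.10 ± 0.11 (SE; limma adjusted p = 0.566) that was 0.02 without heterozygous replicate 1. The same arrangement of letters was therefore found beside genes that rose, fell and did not pass.

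Markers of other cells moved in the same arrays, and their counts stand beside 10.4% higher and 6.56% lower over all genes. Of 11 epithelium markers 4 rose and none fell, with a summed intensity of 2885 to 3636 on heterozygous and 3782 to 4160 on homozygous arrays and a lowest single value of 30.2. Of 11 measured pancreas markers 3 rose and 1 fell (sums of 1685 to 2306 and 3176 to 6564, lowest value 30.2), and of 7 neural crest and neuron markers 3 rose and none fell (832 to 918 and 1230 to 1298, lowest value 33.8). All 10 endothelium markers fell (8137 to 8461 and 5702 to 6021), as did 6 of 9 erythroid markers (12680 to 13648 and 9868 to 10702). A few bright genes carry some of these sums. The pancreas sums rested largely on Cpa1, called higher (534 ± 290 and 1664 ± 103), and on Gcg, not called (596 ± 470 and 2413 ± 1520). Most of the erythroid sums came from Hbb-y (10103 ± 327 and 8413 ± 331; SD, n = 3). None of 8 macrophage markers and none of 5 liver markers was called in limma. Of these, 3 and 1 were at an unadjusted limma p below 0.05, beside 34.1% of all genes. So were 8 of the 11 epithelium, 10 of the 11 pancreas and 6 of the 7 neural crest and neuron markers. In those 3 lists 11, 10 and 7 estimates lay above 0. All 10 endothelium and all 9 erythroid markers had such a p too, each with an estimate below 0, beside 46.4% of all genes below 0. Of 6 mesothelium markers 1 rose and 1 fell, and 3 had an unadjusted limma p below 0.05. No measured marker was at 0, but none could have been, since the lowest value of the whole deposited table was 2.75. In such bulk samples fewer cells of a type and less RNA per cell cannot be told apart, and the part of these markers in the rise of Rarb and the fall of Ncoa1 was not tested.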

How the data were processed

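The deposited table holds 1 intensity per probe set and array for 35512 probe sets, made by the authors with GCRMA per the submitters' processing notes; the version and build were not given in the sources used here. Values are linear, so log2(intensity + 1) was taken. GCRMA makes arrays share a scale, so a change common to most genes would not be seen. A platform annotation named 21789 probe sets with 1 symbol; 1621 had several and 12102 none and were left out. Entrez identifiers of 21698 were found in RefSeq (GRCm38.p6), and no symbol changed. Probe sets with a log2 value of at least 4 on at least 3 arrays were kept, with the brightest per gene. Homozygous and heterozygous arrays were compared with limma 3.58.1 in R 4.3.3 (lmFit, eBayes, two-sided, Benjamini-Hochberg over 18710 genes, no covariate), tested on simulated data. Precision is limited by there being 3 arrays per group.

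The genes, lists and tests were chosen with earlier results of these data known. Named are all members, Tlx1 and the 3 nearest profiles of each called member. Up to 4 called genes per pathway list are named by size of change, or, with none called, the 2 of lowest p. Eif2s3y, Cyp26a1, Cyp26c1, Aldh1a2, Rdh10, Cpa1, Gcg and the other called DR5 genes were chosen after their values were seen. Alternatives were other filters, probe set rules, scalings, an added 16, variance models, array weights, a replicate block, a Y-linked covariate and refits without 1 array. Promoter sequences are RefSeq's.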

Additional observations from a re-analysis of the deposited data

How the results depend on the processing

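Rarb stayed called under all 20 alternatives, from 0.50 to 0.62 on the log2 scale, and over the 6 refits without 1 array over that same range (adjusted p = 0.00555 to 0.0119). Tlx1 also stayed called throughout. Rara, Rarg, Nrip1 and Rxrg stayed uncalled with 1 sign; Rxrg was absent from the fit with a filter at a log2 value of 6. Ncoa1 was not called, and no member was called lower (0), in 7 of the 14 other settings: at -0.25 with no filter (adjusted p = 0.0513), -0.25 with probe sets of several or no symbols tested too (adjusted p = 0.0921), -0.17 after quantile normalization, -0.20 after cyclic loess, -0.22 with array weights, -0.25 with the replicate block (adjusted p = 0.067) and -0.14 with the Y-linked covariate. In the first 2 and in the block fit its estimate did not move. Without 1 array it ranged from -0.31 to -0.21, and members called lower from 0 to 1. Rxrb turned sign after quantile normalization (0.027) and cyclic loess (0.0066), and ranged from -0.11 to 0.036 without 1 array; Rxra turned with array weights (-0.0055) and the covariate (-0.055), and ranged from -0.021 to 0.076. Cyp26a1 was at 0.013 with the covariate and between -0.19 and 0.021 without 1 array. The cause was not tested. The labels do not say whether replicate numbers pair the samples. Deviations of same-numbered arrays correlated at -0.01, 0.04 and -0.11, which shows no pairing but cannot exclude one with so few arrays. The replicate block thus has no stated basis in the labels. It gave 3163 calls against 3178. Without 1 array, calls over all genes ranged from 1198 without homozygous replicate 1 (699 higher, 499 lower) to 3563 without homozygous replicate 2 (2319 higher, 1244 lower). They numbered 1376, 1689 and 1822 without heterozygous replicates 2 and 1 and homozygous replicate 3, 1376 with probe sets of several or no symbols tested too, and 1647 with the covariate. Ddx3y, planned for the covariate, was not among the genes tested, so 3 genes were used.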
